A study of Homo sapiens with 5 samples.

Results

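The regions described are all of those listed for GFP-(GR)50 in 2 CLIP-Seq experiments, 183 regions in replicate 1 and 805 in replicate 2, which together make 988 of the 3147 regions listed for the 5 libraries of the study. GFP-(GR)50 is a green fluorescent protein fused to 50 glycine-arginine repeats, expressed here by lipofectamine 3000 transfection of HEK-293 cells, an established human embryonic kidney line. Replicate 1 came from experiment 1, in which lysates were digested with RNase I at 0.04 units/ml, and the other library of that experiment was from cells that express GFP alone. Replicate 2 came from experiment 2, with RNase I at 0.02 units/ml, next to 1 library of untransfected cells and 1 of cells with GFP-(GP)10, in which GFP carries 10 repeats of glycine-proline. All cells were crosslinked with ultraviolet light at 254 nm and 100 mJ/cm2, lysates also received DNase, the GFP moiety was bound to beads for 1.5 hours, and RNA was cut out of a gel by size and sequenced as single reads of 110 nt. The fusion is overexpressed from a transfected construct, so its amount is that of the transfection and not of a patient's neurons. Each RNase I amount has 1 GFP-(GR)50 library, and the amount changed together with the experiment, so the 2 cannot be told apart. Every test below compares 2 lists, not 2 RNase I amounts. A list of bound regions gives no expression level, so the cell line was not checked against marker genes.

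Poly-glycine-arginine is one of the dipeptide-repeat proteins made from the expanded C9ORF72 repeat in amyotrophic lateral sclerosis and frontotemporal dementia. It is positively charged, gathers in the nucleolus, where ribosomal RNA is made, and binds RNA and ribosomal proteins. In CLIP, RNase I trims the RNA that a crosslinked protein does not shield, and it cuts after any base. A milder digestion is used to leave longer fragments, and the fragments kept for sequencing are also set by the gel piece that was cut.

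The sequences below were taken from RefSeq (GRCh38.p14), mostly for named RNAs that lie inside listed regions. They show stretches that the lists hold in ribosomal RNA spacers and in a region annotated to 1 long noncoding RNA. For the mature miRNAs, capitals mark the seed, bases 2 to 8. The first 3 were covered in both lists, by ribosomal RNA regions far wider than the miRNA. Both arms of hsa-miR-10396b come from 1 hairpin in a copy of the ribosomal RNA unit, and the last lies in a region of replicate 1 alone, annotated to MIR4485 and MTRNR2L8.
hsa-miR-3648: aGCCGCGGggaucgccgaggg
hsa-miR-10396b-5p: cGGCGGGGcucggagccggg
hsa-miR-10396b-3p: gGCCCCGGgcccucgaccggac
hsa-miR-4485-3p: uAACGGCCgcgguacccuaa
The reads counted on the region around hsa-miR-3648, at chr21:8986603-8988748 in replicate 1, were 458 over 2145 bp, and 786 over 2149 bp in replicate 2. These are reads of the whole region and not of the miRNA. The region around hsa-miR-4485-3p held 5.21 reads over 221 bp in replicate 1, and no region of replicate 2 covered it.
For MIR663AHG, the host transcript of the miRNA MIR663A, 189 bases on the minus strand of chromosome 20 (chr20:26209295-26209483) could be read from RefSeq's window around the start it gives for this gene. These bases lie upstream of that start and so outside RefSeq's transcript, although the files annotate the region to MIR663AHG. Capitals mark the bases that both lists hold, and lower case the 3′ end that only replicate 2 holds.
MIR663AHG: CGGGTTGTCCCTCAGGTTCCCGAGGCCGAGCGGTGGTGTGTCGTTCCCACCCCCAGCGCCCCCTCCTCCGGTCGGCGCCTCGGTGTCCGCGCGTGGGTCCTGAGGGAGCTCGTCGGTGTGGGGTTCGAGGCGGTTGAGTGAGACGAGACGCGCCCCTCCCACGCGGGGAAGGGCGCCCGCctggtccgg
Of these bases, 74.1% were G or C. By its annotation alone, this region is described with the long noncoding RNAs below. Whether its sequence resembles ribosomal RNA or its spacers was not checked.

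Replicate 1 had few, wide regions and replicate 2 many, mostly narrow ones. The median region width was 162 bp in replicate 1 and 54 bp in replicate 2, with quartiles of 58.5 to 264 bp and 45 to 107 bp. With only the 183 regions with most reads kept in each list, the medians were 162 and 163 bp. Without ribosomal RNA they were 80 and 52 bp. The read number used throughout, called listed reads, counts reads that map to one place plus the authors' scaled share of reads that map to several, and the lowest value in either list was 5. Listed reads summed to 56588 in replicate 1 and 134222 in replicate 2, a ratio of 2.37, and reads that map to one place to 1603 and 9229. Regions under 10 reads made up 36.6% of replicate 1 and 70.8% of replicate 2. The median widths of the GFP, untransfected and GFP-(GP)10 lists were 69, 51 and 54.5 bp. Over whole lists, replicate 1 was thus also wider than GFP, the other list of its own RNase I amount. These lists differ in class: tRNA, with a median of 55 bp in GFP, made up 48.7% of GFP regions and 2.19% of replicate 1. Medians within ribosomal RNA were 202 bp in replicate 1 and 293 bp in GFP, and within snRNA 162 and 164 bp. Several other classes, such as introns (41 and 32.5 bp) and long noncoding RNAs (177 and 79.5 bp), ran the other way. Both lists of experiment 1 held few regions opposite a SINE, a short dispersed repeat such as Alu, on the other strand: 9 of 472 in GFP and 1 of 183 in replicate 1 of the fusion. All 3 lists of experiment 2 held many, with 214 of 805 in replicate 2 of the fusion, 107 of 348 in GFP-(GP)10 and 690 of 1339 in untransfected cells. In each experiment the GFP-(GR)50 list had the lowest share, at 0.546% against 1.91% in experiment 1 and 26.6% against 30.7% and 51.5% in experiment 2. The part of such regions in the results below was not tested except where values without them are given.

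Ribosomal RNA made up most regions of replicate 1 and a minority of those of replicate 2. It accounted for 114 of 183 regions (62.3%) in replicate 1 and 119 of 805 (14.8%) in replicate 2, a number that hardly differed, while the share fell by 47.5 percentage points (two-sided Fisher's exact test, adjusted p = 6.94e-36 over 14 classes). By the same exact test, introns of protein-coding genes rose from 6 regions (3.28%) to 187 (23.2%; adjusted p = 3.00e-11). Repeat elements went from 3 regions to 123 (adjusted p = 5.27e-08), unannotated regions from 11 to 113 (adjusted p = 0.00967) and exons of protein-coding genes from 10 to 96 (adjusted p = 0.0317), each as a share of its list in the same exact test. In all, 5 of 14 classes (35.7%) passed the threshold of 0.05, 4 higher in replicate 2 (28.6%) and 1 lower (7.14%). The snRNA share, 16 regions against 35, did not pass (Fisher's exact test, adjusted p = 0.0571), although it did when each name was counted once (13 against 22, adjusted p = 0.000976). Nor did the 7SK share pass, with 10 regions against 26, or the tRNA share, with 4 against 39.

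Regions of repeated RNAs share reads, so they are not independent and these p-values are too small. With a minimum of 10 reads in both lists, introns (17 against 0 in replicate 1, exact test, adjusted p = 0.00780) and unannotated regions (31 against 4, adjusted p = 0.0183) were still called beside ribosomal RNA. When the minimum of replicate 2 was raised by the ratio of listed reads, to 11.9, it kept 194 regions and 1 class passed, ribosomal RNA, at 87 regions against 114 (fell by 17.4 points, exact test, adjusted p = 0.0130). Introns then numbered 11 against 6 (adjusted p = 0.649) and exons 3 against 10, a turned direction (exact test, adjusted p = 0.190). A further alternative, added once the values were known, left out regions that lie opposite a repeat element, and introns then numbered 41 of 479 against 5 of 172 (exact test, adjusted p = 0.0394), exons 79 against 10 (adjusted p = 0.00121) and unannotated regions 26 against 7 (adjusted p = 0.676).

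**Figure D1:**
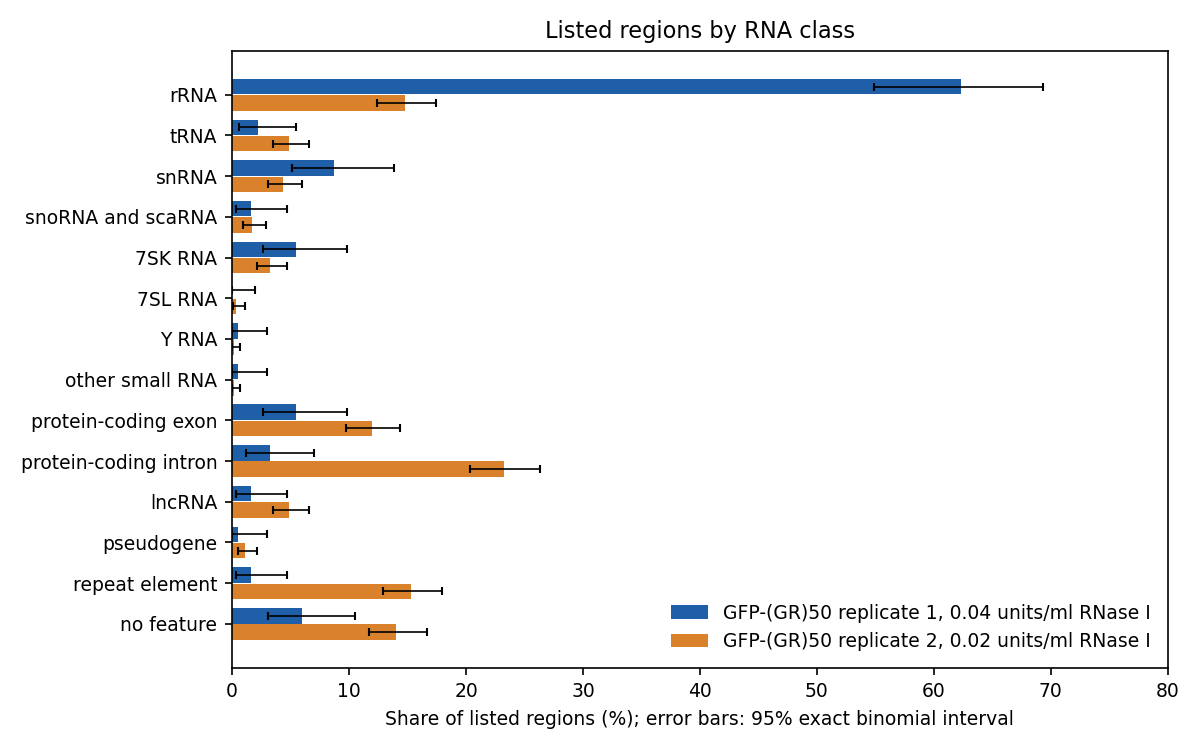
Share of listed regions (%) in each RNA class for GFP-(GR)50 replicate 1 (183 regions) and replicate 2 (805 regions), with 95% exact binomial intervals that cover counting error only. Ribosomal RNA is 62.3% of the first list and 14.8% of the second, and introns are 3.28% and 23.2%.

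By reads, ribosomal RNA dominated both lists. It held 97.1% of listed reads in replicate 1 and 75.6% in replicate 2, and the mean was 86.4% ± 15.2 (SD, n = 2). Replicate 2 also held 4 wide unannotated regions on the contig ML143377.1 with 25739 reads, 19.2% of its listed reads, whose widths lay within 5 bp and whose reads lay within 5% or 2 reads of annotated ribosomal RNA regions of the same list. With such contig regions counted as ribosomal RNA in both lists, the shares were 98.3% and 94.8%. Outside the ribosomal RNA class and these contig regions, listed reads came to 943 in replicate 1 and 6995 in replicate 2. Their ratio was 7.42, against 2.37 for all listed reads. These totals still include regions on an unnamed copy of the ribosomal RNA unit on chromosome 21, classed as repeat element or unannotated. Such regions held 196, 139 and 28.7 reads in replicate 1 and 521 in replicate 2. These reads are part of the 943 and 6995, so the ratio of 7.42 is not free of ribosomal RNA. It was not computed without them. The ribosomal share was lower for reads that map to one place, at 85.9% and 48.0%.

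The ribosomal RNA reads came mostly from 8 copies of the 45S unit, the gene for the precursor that is cut into 18S, 5.8S and 28S RNA. Replicate 1 held 52540 reads on them, 92.8% of its listed reads, in 31 regions, and replicate 2 held 95053, 70.8%, in 12 regions. The raw ratio of replicate 2 to replicate 1 ran only from 1.76 to 1.86 over the copies, which are near-identical and share their reads, so the copies are not replicates. With the extra contig added to replicate 2 the ratio was 2.30, close to the 2.37 of all listed reads. Covered length differed little, at 100159 and 102008 bp, so the level per length was 525 reads per kb in replicate 1 and 932 in replicate 2.

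In replicate 2, 5 of the 8 copies were 1 unbroken region, and in replicate 1 none was. On RNA45SN1, replicate 2 listed chr21:8433220-8446606, a region of 13386 bp with 12735 reads. On the same copy replicate 1 listed 3 blocks of 7352, 1018 and 4823 bp with 2169, 340.1 and 4582 reads, and levels of 295, 334 and 950.1 reads per kb. The first gap of replicate 1, of 94 bp, lay in the second internal spacer, between 5.8S and 28S, and the next, of 77 bp, in 28S. Gaps in these places were found in all 8 copies of replicate 1, 94 to 128 bp wide in the spacer and 77 bp wide in 28S. The annotation placed them on RNA45SN1, RNA45SN2 and RNA45SN3, and on the other copies they lay at nearly the same distance from the first base. Replicate 2 had no gap in either place on any copy, although it had 1 elsewhere in 28S, of 51 bp, on RNA45SN3. Both copies on KI270733.1 had a further gap of 81 bp in replicate 1. Gaps in the 5′ external spacer, before 18S, were seen in both lists: on RNA45SN2 such a gap spanned 67 bp in replicate 1 and 60 bp in replicate 2, and on RNA45SN3 217 and 204 bp. The outer ends of the copies hardly moved. Replicate 1 began 2 bp inside replicate 2 on all 8 copies, and ended 1 to 20 bp short of it.

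**Figure D2:**
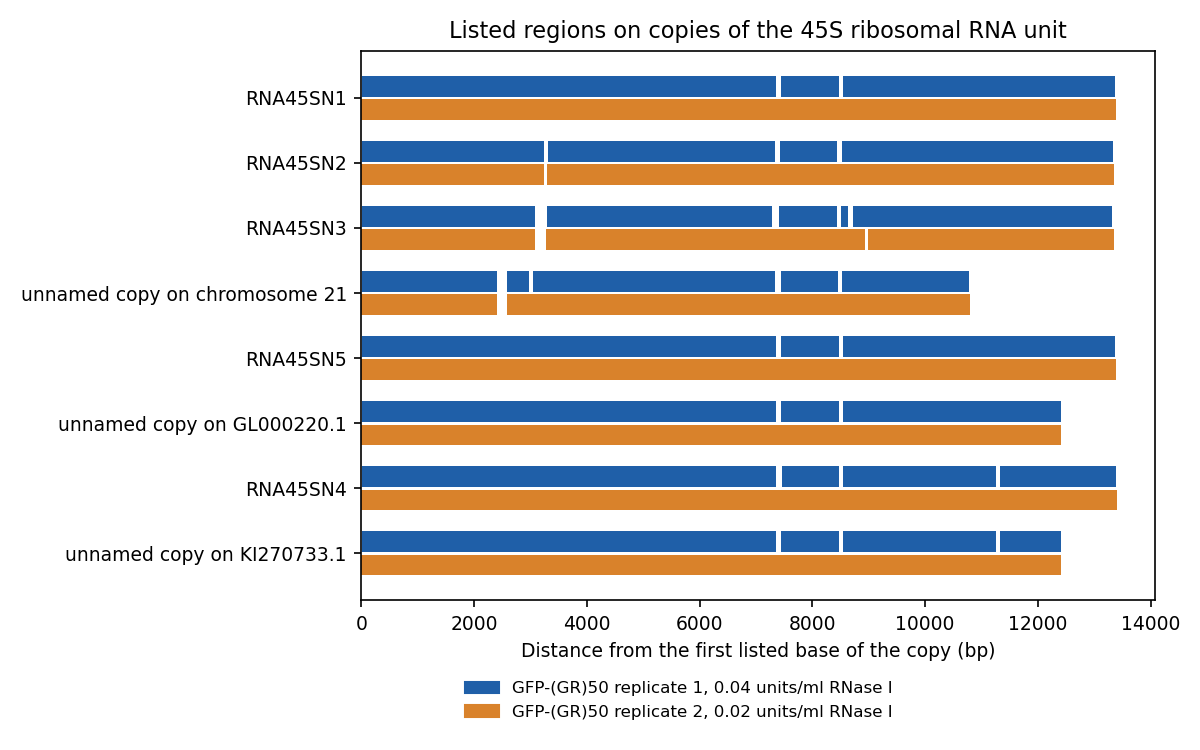
Listed regions (bars) on 8 copies of the 45S ribosomal RNA unit, by distance in bp from the first listed base of each copy, for GFP-(GR)50 replicate 1 above replicate 2. Replicate 1 is broken in the second internal spacer and in 28S on every copy, while replicate 2 is broken on 3 copies only.

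Scattered pieces of ribosomal RNA elsewhere in the genome were also listed in both. Ribosomal RNA regions under 1000 bp numbered 88 with 3019.8 reads in replicate 1 and 107 with 6170.1 reads in replicate 2, with median widths of 152 and 145 bp. Their reads did not all scale alike. An LSU (28S) copy at chr4:75886032-75886095 held 55.7 reads in replicate 1, 24 of them mapping to one place, and 368 in replicate 2, 240 of them to one place. At chr21:14084968-14085121 replicate 1 held 8.05 reads over 153 bp. Replicate 2 held 68.6 over 61 bp at chr21:14085065-14085126, with 56 bp in common. In the opposite direction, the LSU copy at chr1:42313714-42313748 held 126 reads, 78 of them to one place, in replicate 1 and 45.2, with 41 to one place, in replicate 2. The copy in TEX101 held 68.0 and 35.2 reads, and that in USP53 21.7 and 7.07. Of the 13 matched regions with more reads in replicate 1 than in replicate 2, 10 were ribosomal RNA, as were 72 of all 111 regions matched 1 to 1.

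Almost everything well covered in replicate 1 was listed again in replicate 2, but not the reverse. A region of replicate 2 overlapped 150 of 183 regions of replicate 1 (82.0%, exact 95% interval 75.6 to 87.2), and a region of replicate 1 overlapped 130 of 805 of replicate 2 (16.1%, 13.7 to 18.9), counting at least 1 bp on the same strand. All 116 regions of replicate 1 with 10 reads or more were matched, and the 33 unmatched ones had at most 8.55 reads. In replicate 2 the share matched went from 0.355% of regions with 5 to 6 reads to 83.6% of those with 50 or more. The ribosomal RNA class carried this: outside that class, 3 of 11 regions with 50 or more reads were matched (27.3%), and 33 of 144 with 10 or more (22.9%). Both counts include the unannotated ML143377.1 regions described above, of up to 12731 reads and unmatched. They also include a matched region of 521 reads on the unnamed copy of the ribosomal RNA unit on chromosome 21. As a scale for these shares, 102 of the 183 regions of replicate 1 overlapped the GFP list of its own experiment, and 207 and 121 of the 805 of replicate 2 overlapped the untransfected and GFP-(GP)10 lists. With the raised minimum in replicate 2, chosen after seeing the data for this comparison, the shares were 72.1% of replicate 1 and 57.2% of replicate 2.

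**Figure D3:**
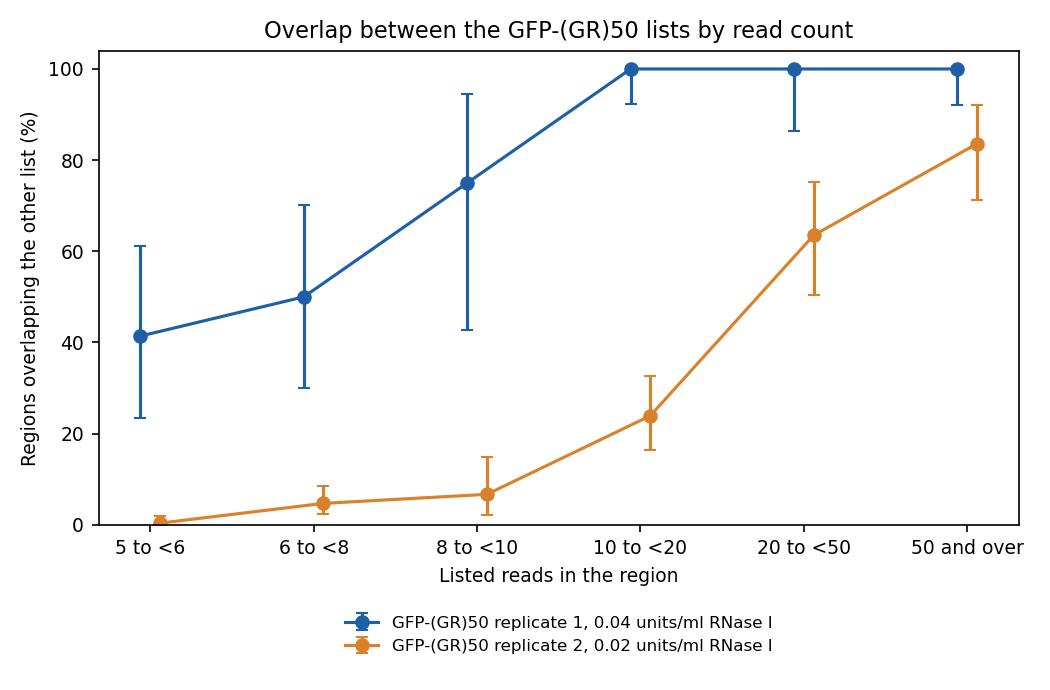
Share of regions (%) that overlap a region of the other GFP-(GR)50 list, by listed reads in the region, with exact 95% intervals. Replicate 1 reaches 100% from 10 reads on, and replicate 2 reaches 83.6% at 50 reads and over when all classes are counted. Outside the ribosomal RNA class it is 27.3%, a count that includes unannotated contig regions resembling ribosomal RNA.

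Overlap was divided by RNA class. In replicate 1, 107 of 114 ribosomal RNA regions, 10 of 10 7SK regions and 14 of 16 snRNA regions were matched. Of exons 2 of 10 were matched, and of introns 0 of 6. In replicate 2, 91 of 119 ribosomal RNA regions were matched, and outside ribosomal RNA 39 of 686 (5.69%). None of its 187 introns and 2 of its 96 exons overlapped replicate 1. Names gave the same division: 54 names had a region in both lists, 59.3% of the 91 names of replicate 1 and 11.5% of the 469 of replicate 2, and 32 of these lay outside ribosomal RNA.

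**Figure D4:**
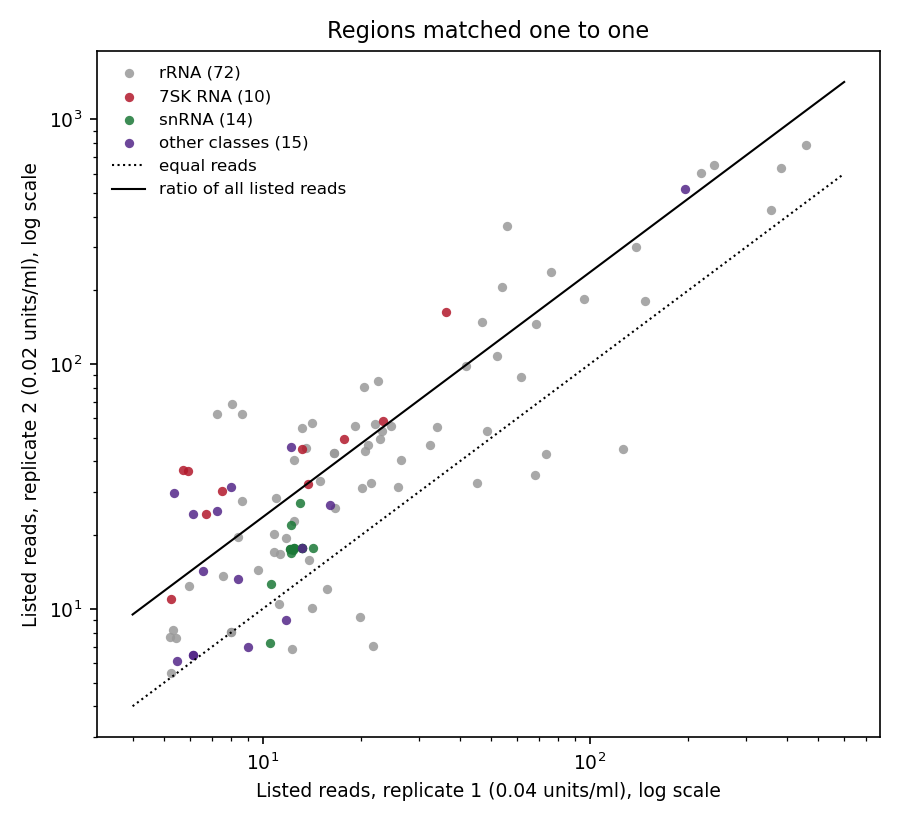
Listed reads of the 111 regions matched 1 to 1, replicate 1 against replicate 2, both on log scales, coloured by RNA class. The dotted line is equal reads and the solid line the 2.37-fold ratio of all listed reads; the median ratio of the points is 1.79, and 13 of them lie below the dotted line.

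In 111 matches a region met exactly 1 region of the other list, and these allow widths and reads to be set side by side. Among them the median width was 162 bp in replicate 1 and 163 bp in replicate 2, so the lower median width of the whole of replicate 2 was not seen in them. Replicate 2 was the wider in 82, the narrower in 26 and equal in 3, with a median width ratio of 1.05 and a range of 0.399 to 3.85. The 5′ ends lay within 5 bp of each other in 65 matches and the 3′ ends in 68. Beyond 5 bp, replicate 2 reached further downstream at the 3′ end in 38 matches and less far in 5. At the 5′ end it reached further upstream in 26 and less far in 20. The median raw read ratio was 1.79, below the 2.37 of the lists, with a range of 0.325 to 8.66. As a share of listed reads, 7 of the 111 (6.31%) were over 2-fold higher in replicate 2 and 21 (18.9%) over 2-fold lower.

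7SK RNA was listed on the same 10 loci in both replicates, and replicate 2 added others. 7SK is a small nuclear RNA that holds the elongation factor P-TEFb inactive. On its gene RN7SK (chr6:52995617-52995952 in replicate 2) replicate 1 held 36.4 reads, 5 of them to one place, and replicate 2 held 163, 58 of them to one place. The control lists held 28.4 (GFP), 15.3 (untransfected) and 10.9 (GFP-(GP)10) reads on it, none scaled for the size of the lists. As a share of listed reads, RN7SK made up 0.0644% in replicate 1 and 0.122% in replicate 2, 1.89 times as high (counting interval 1.32 to 2.82), next to 0.0929% in GFP, 0.0679% in untransfected cells and 0.146% in GFP-(GP)10. The region spanned 332 bp in replicate 1 and 335 bp in replicate 2, the full 332 nt of the RNA.

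The other 9 matched 7SK loci are pseudogenes, copies that share reads with RN7SK and whose reads are uncertain for that reason. RN7SKP203 held 23.4 and 58.6 reads, RN7SKP255 17.7 and 49.5, and RN7SKP176 13.2 and 45. RN7SKP230 went from 5.72 to 36.8 reads and RN7SKP9 from 5.92 to 36.6. All 10 loci had more reads and a wider region in replicate 2, with a median raw ratio of 3.51 (2.09 to 6.44) against 1.79 over all matched regions. The share of listed reads was over 2-fold higher at 2 of the 10. The 16 further 7SK regions of replicate 2 had a median of 8.59 reads and a highest value of 19.5. 15 of these 16, and 7 of the 10 matched ones, overlapped no control region, next to 463 of 675 unmatched and 55 of 130 matched regions over all classes of replicate 2.

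The snRNA class, chiefly RNAs of the spliceosome, held 186 reads in 16 regions in replicate 1 and 427 in 35 in replicate 2. These were 0.330% and 0.318% of listed reads. In replicate 2 the class includes RNU7-1, which is not spliceosomal, with 17 reads. U1, which pairs with the 5′ splice site, was covered over 161 to 174 bp at every copy listed in both, except RNVU1-17 with 41 bp in replicate 1 and 100 bp in replicate 2. RNU1-1 held 14.2 reads over 174 bp in replicate 1 and 17.8 over 165 bp in replicate 2, for an RNA of 164 nt. RNVU1-7, the U1 variant with most reads that map to one place, held 12.2 reads (10 to one place) over 162 bp and 22 (17 to one place) over 163 bp. The GFP list also covered U1 end to end, at 167 bp on RNU1-1, while the GFP-(GP)10 region spanned 142 bp and the untransfected one 136 bp. The copies named only U1 held 50.4 reads in 4 regions in replicate 1. Replicate 2 had a region on each, 3 of them named U1 with 52.1 reads and 1, on the contig KI270713.1, without a name and with 17.8 reads. Over the 14 snRNA regions matched 1 to 1 the median raw ratio was 1.39, below the 2.37 of the lists. Copies of U1 share reads and are not independent.

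U5, which aligns the exons for splicing, was narrower in replicate 1. RNU5B-1 held 13 reads over 28 bp of its 117 nt in replicate 1 and 27 reads over 80 bp in replicate 2, while GFP, at the RNase I amount of replicate 1, held 23.7 reads over 115 bp. RNU5F-1 was listed in replicate 1 (6 reads, 31 bp) and not in replicate 2, and also in GFP (16.1 reads) and untransfected cells (5.08). RNU5A-1 was listed in replicate 2 (20 reads, 108 bp) and not in replicate 1, and also in GFP (19.6 reads). For U2, which binds the branch point, RNU2-2P held 10.5 reads over 146 bp and 7.27 over 159 bp, and 12 further regions named U2, with 88.3 reads, none to one place, were in replicate 2 and not in replicate 1, while regions of that name held 136 reads in GFP and 118 in untransfected cells. RNU7-1, which takes part in histone mRNA processing, held 17 reads in replicate 2 and 9 in untransfected cells. RNU12 of the minor spliceosome held 14 reads in replicate 2, 12 in GFP and 8 in untransfected cells. Neither was listed in replicate 1.

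**Figure D5:**
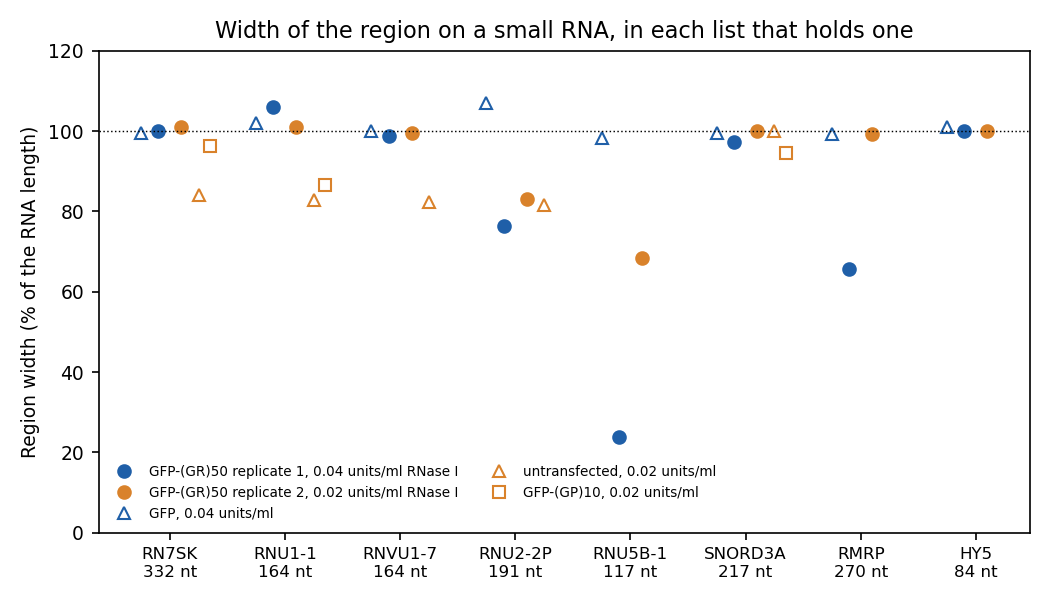
Width of the listed region as a percent of the annotated RNA length for 8 small RNAs, in each library whose list has a region there. RN7SK, U1 (RNU1-1, RNVU1-7), SNORD3A and HY5 are covered end to end in both GFP-(GR)50 lists. RNU5B-1 and RMRP are covered over 23.9% and 65.6% in replicate 1 but 68.4% and 99.3% in replicate 2. In GFP, at the RNase I amount of replicate 1, they are covered over 98.3% and 99.3%.

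Among RNAs of the nucleolus, U3, the small nucleolar RNA needed to cut the 18S precursor, was covered end to end in both lists. SNORD3A held 5.34 reads over 211 bp in replicate 1 and 29.8 over 217 bp in replicate 2, and none of them mapped to one place. Its copies SNORD3B-1, SNORD3B-2, SNORD3C and SNORD3D held 22.4 to 28.3 reads in replicate 2 and had no region in replicate 1. SNORD3A held 18.7, 13.6 and 8.81 reads in the GFP, untransfected and GFP-(GP)10 lists. The copies were listed there too, except SNORD3C in GFP-(GP)10, with SNORD3B-1 at 17.1, 12.5 and 6.31 reads and SNORD3D at 12.1, 9.88 and 5.15. RMRP, the RNA of RNase MRP, which cuts the ribosomal RNA precursor, held 8 reads over 177 bp and 31.5 over 268 bp, nearly all to one place. Both regions ended at the same base at 1 end, chr9:35657751, and the extra 91 bp of replicate 2 lay at the other, its 5′ end. GFP, at the RNase I amount of replicate 1, held 17 reads over 268 bp of RMRP, 99.3% of its length. RPPH1, the RNA of RNase P, held 25 reads in replicate 2 and was in no other list. In all, 3 snoRNA and scaRNA names had a region in replicate 1 and 14 in replicate 2, with 1 in common. SNORA51 (6 reads) and SNORA53 (5 reads) were in replicate 1 alone, and U8 (11 reads) and SNORA6 (10 reads) in replicate 2 alone. SCARNA2 held 10 reads in replicate 2 and 6 in GFP, and was not in replicate 1.

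The Y RNA HY5, a partner of the Ro protein, held 9 reads in replicate 1 and 7 in replicate 2, over 84 bp of 84 nt in both, and 71 reads in GFP. Transfer RNA had 4 regions with 36.5 reads in replicate 1 and 39 with 471 reads in replicate 2. It was far more abundant in the GFP list, with 230 regions and 8407 reads, and held 68 regions with 729 reads in GFP-(GP)10 and 7 with 56.8 in untransfected cells. The replicates shared the names tRNA-Lys-AAA, at 22.2 reads in 2 regions and 70.3 in 4, and tRNA-Glu-GAG_, at 7.25 in 1 and 60.5 in 7. At the loci listed in both, tRNA-Lys-AAA held 6.10 and 24.4 reads on chromosome 1, and 16.1 and 26.5 on chromosome 17. The shared tRNA-Glu-GAG_ locus held 7.25 and 25. In replicate 2, 27 of the 36 unmatched tRNA regions overlapped a control region of its own experiment, against 183 of 675 unmatched regions over all classes (27.1%).

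For protein-coding genes the lists had almost nothing in common. Exons or introns of 17 genes were listed in replicate 1 and of 274 in replicate 2, with 3 in both. MTRNR2L8 and MTRNR2L4, which resemble the mitochondrial 16S ribosomal RNA in sequence, had overlapping regions, with 6.57 and 14.3 reads for MTRNR2L8 and 5.47 and 6.10 for MTRNR2L4. DAZAP1, an RNA-binding protein, had intron regions of 7 reads in replicate 1 and 10 in replicate 2, at least 3975 bp apart. In replicate 1 no exon region reached 10 reads, with IRF2BP2 (6 reads), BSDC1, ADCK1 and FAM53C (5 reads each) among them. In replicate 2, 86 of 96 exon regions and 170 of 187 intron regions held fewer than 10 reads, and 146 of the introns lay opposite a repeat element. At the ratio of all listed reads, 2.37, the minimum of 5 in replicate 1 corresponds to 11.9 reads in replicate 2. That ratio rests mostly on ribosomal RNA. It was 7.42 outside the ribosomal RNA class and the matching contig regions, and 5.76 for reads that map to one place. Total depths are unknown, and the part of depth in these thin regions was not tested.

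The exon regions of replicate 2 had genes of the translation apparatus among those with most reads. EEF2, the factor that moves the ribosome along the mRNA, had 6 exon regions with 47.9 reads, 47 of them to one place, from chr19:3976285-3976555 to chr19:3982806-3982934. It had 5 reads in the GFP list and no region in replicate 1. Of the cytosolic ribosomal protein list, 8 genes had a region in replicate 2 and 1 in replicate 1, with none in common. RPL13 held 16.5 reads, RPLP2 13.8, RPL8 12.6 and RPS3 10.8 in replicate 2, and RPL37A held 5 in an intron in replicate 1. Other lists were sparse: translation factors had 4 genes in replicate 2 and none in replicate 1, nucleolar and ribosome biogenesis factors 5 and none, histones 4 and none, stress granule proteins 4 and none, and hnRNP and SR splicing factors 1 and none. Chaperones, cytoskeleton and ALS and FTD genes had 1, 2 and 2 genes in replicate 2 and none in replicate 1. In the GFP, untransfected and GFP-(GP)10 lists, stress granule proteins had 0, 6 and 2 genes, ALS and FTD genes 0, 4 and 3, and translation factors 3, 3 and 1. Splicing factors had 0, 2 and 2, cytoskeleton 0, 0 and 2, and chaperones 0, 1 and 0. Ribosomal proteins had 1, 0 and 0, nucleolar factors 1, 1 and 0, and histones 2, 0 and 0. The gene lists were not tested, and replicate 2 and replicate 1 held 469 and 91 names in all.

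Long noncoding RNAs had 3 regions in replicate 1 and 39 in replicate 2. MIR663AHG, whose sequence is printed above, held 12.2 reads over 202 bp in replicate 1 (chr20:26209303-26209505) and 69.3 reads in 4 regions in replicate 2, the widest at chr20:26209294-26209627 with 45.9 reads over 333 bp. It was listed in no control. Of the reads on the 2 overlapping regions, 9 of 12.2 mapped to one place in replicate 1 and 26 of 45.9 in replicate 2. Whether the rest belong to ribosomal RNA was not tested. As a share of listed reads the ratio of replicate 2 to replicate 1 was 1.59 for the 2 overlapping regions (0.843 to 3.35), an interval that holds 1, and 2.40 (1.30 to 4.92) with the other 3 regions of replicate 2 counted in. The 3′ ends of the 2 overlapping regions lay 9 bp apart, while the 5′ end of replicate 2 reached 122 bp further upstream. MALAT1, an abundant nuclear RNA, had 6 regions with 56.2 reads in replicate 2 and none in replicate 1, and 22.9, 49 and 13 reads in the GFP, untransfected and GFP-(GP)10 lists. NEAT1, the RNA scaffold of paraspeckles, had 3 regions with 19 reads in replicate 2 and none in replicate 1, and 3 regions with 7, 17 and 26 reads in untransfected cells. XIST held 5 reads in 1 unmatched region in replicate 1 and 52 in 5 regions in replicate 2. Its share ratio, 4.38 (1.76 to 14.1), was the highest of the shared names. The GFP, untransfected and GFP-(GP)10 lists held 77.8, 157 and 17 reads on it.

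Over the 54 names in both lists, 7 (13.0%) had a share of listed reads over 2-fold higher in replicate 2 and 8 (14.8%) over 2-fold lower, and the median ratio was 0.842. The 32 shared names outside ribosomal RNA had a median of 0.900 by this measure. Set against listed reads outside the ribosomal RNA class and the matching contig regions, their median was 0.288. By this measure 23 were over 2-fold lower and 0 over 2-fold higher in replicate 2. The totals used still include regions on the unnamed copy of the ribosomal RNA unit on chromosome 21. The name LSU-rRNA_Hsa held 9721 reads in replicate 1 and 2939.7 in replicate 2. These are not the same stretches, since wide blocks of replicate 1 named LSU alone lie inside wider regions of replicate 2 with combined names, such as LSU with SSU.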

How the data were processed

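The builds hg38 and GRCh38.p13 and the tools featureCounts 2.0.2, bedtools 2.30.0, UMI-tools 1.1.2 and Novoalign 4.03.03 are named in the submitters' processing notes, with no roles. The region caller is not named in those notes. Per the file headers, 1 deposited column is a count of uniquely mapping reads, which in replicate 2 of GFP-(GR)50 holds some values that are not whole and was taken as an expected count. The other, used as listed reads, is an expected count (estimated count) in which the authors scaled multimapping reads by an unstated factor. Neither is normalised for depth, and total library depths are unknown. Coordinates are hg38 as the files give them, and whether starts count from 0 or 1 is not stated.

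Every region was put into 1 of 14 classes by a rule set here over the deposited annotation types and gene names. Ribosomal RNA was taken first, so a region with such a name inside a gene or intron counts as ribosomal RNA. RN7SK counts as 7SK RNA. Class shares were compared with Fisher's exact test, two-sided, and adjusted over the classes by Benjamini-Hochberg (scipy 1.17.1, python 3.11.15), tested on simulated data. Regions were matched by at least 1 bp on the same strand. Intervals are exact (Clopper-Pearson, 95%) and, like those of read ratios, cover counting error only. Scaled reads are not independent, so they are too narrow. RNA lengths and sequences came from RefSeq tables, and no genome was used here, so other region sequences are not printed.

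The members, gene lists and comparisons were chosen with earlier results of these data known. Named outside ribosomal RNA were the first 25 names in both lists by the worse of their 2 ranks by reads, the 6 with most reads in each list alone, and up to 4 members of each gene list. Of ribosomal RNA names, the first 6 by reads in each list qualified. Names were left out where they added nothing. All other names in the text were chosen after their values were seen. Alternatives covered read minimum, list size, contigs, merging and overlap.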

Additional observations from a re-analysis of the deposited data

Results flagged for a closer look

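In 5 classes the share of regions in GFP-(GR)50 moved one way against the control of experiment 1 and the other way against both controls of experiment 2. Each control is 1 library, and the difference between the experiments was not tested. For snRNA, the share was 1.43 points lower than GFP in replicate 1 (-1.43) and 1.44 points above untransfected cells and 1.76 above GFP-(GP)10 in replicate 2. For snoRNA and scaRNA the 3 differences were -0.903, 1.37 and 0.302 points, in the same order. For 7SL RNA they were -0.424, 0.373 and 0.373 points, from 0 and 3 regions in the GFP-(GR)50 lists, and for Y RNA -1.15, 0.124 and 0.124 points, from 1 region in each. Unannotated regions ran the opposite way, with 1.14, -11.8 and -1.48 points.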

How the results depend on the processing

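No paired analysis was possible because each control has 1 library and the 2 GFP-(GR)50 lists are replicates of 1 group. The number of classes past the threshold, 5, became 3 with at least 10 listed reads and 1 with the same number of top regions or with the raised minimum of replicate 2, and 4 to 6 under the other alternatives. Over 8 alternatives, the 5 called classes kept call and direction in 26 of 40 comparisons, and ribosomal RNA in all 8. Differences that reversed, in points, were 7SK RNA, at 2.50 (at least 10 reads), 1.09 (top regions) and 1.24 (raised minimum); exons, at -4.37 (top regions) and -3.92 (raised minimum); pseudogenes, at -0.0110 (at least 10 reads); and snoRNA and scaRNA, at -0.0302 (named chromosomes), -0.776 (each name once) and -0.165 (merged within 100 bp). The snRNA share, not called at first, was called on named chromosomes (-4.62, exact test, adjusted p = 0.0496), with each name once (-9.19, 0.000976) and merged within 100 bp (-6.00, 0.0162). The cause was not tested.

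The mean ribosomal share of reads, 86.4%, was 66.9% with reads that map to one place, and ran from 75.6% to 97.1% when 1 replicate was left out. Median width became 163 bp in replicate 2 with top regions and 80 bp in replicate 1 without ribosomal RNA. The shares of replicate 1 and replicate 2 with an overlap were 57.9% and 13.2% when the overlap had to span 50% of both regions, 95.7% and 39.6% with at least 10 reads, 70.5% and 59.0% with top regions, 56.5% and 5.69% without ribosomal RNA, and 72.1% and 57.2% with the raised minimum. Without regions opposite a repeat element the share of replicate 2 was 25.1%. Shared names, 54, became 33 with at least 1 read that maps to one place and 32 without ribosomal RNA. The median share ratio was 0.756 over regions and 0.842 over names. Relative to reads outside the ribosomal RNA class and the matching contig regions it was 0.242 and 0.269. Over names with reads that map to one place it was 0.521. Depth limits regions near the minimum of 5 reads, and total depth is unknown.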

Other observations

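Replicate 2 held 9 regions outside ribosomal RNA of at most 45 bp with at least 30 reads that map to one place, limits that were chosen after seeing the values, and replicate 1 held none. The GFP list held 7, of which 5 were tRNA, untransfected cells 1 and GFP-(GP)10 none. Of the 9 in replicate 2, with 686 reads together, the highest was on LINC01170, a long noncoding RNA, at chr5:124235488-124235529. It held 225 reads over 41 bp, 222 of them to one place, and GFP-(GP)10 also had a region there. An intron of GALNT1, an enzyme that starts O-linked glycosylation, held 142 reads over 24 bp at chr18:35589204-35589228, all to one place. Introns of SUSD1 (79 reads over 42 bp), PRICKLE2, a planar polarity protein (42.5 reads over 37 bp), and CYP26C1, an enzyme that breaks down retinoic acid (42.5 reads over 26 bp), followed. The regions on GALNT1, SUSD1, PRICKLE2 and CYP26C1 overlapped no region of the other 4 lists. Those on LINC01170 and SUSD1 lay opposite low-complexity sequence and that on GALNT1 opposite a LINE repeat. Those on PRICKLE2 and CYP26C1 lay opposite no repeat. Such narrow regions were not particular to replicate 2. In GFP, unannotated ones of 22 bp (424 reads) and 21 bp (88 reads), opposite LTR repeats, overlapped regions of replicate 1. The region on tRNA-Arg-CGA_ (50 reads) overlapped a region in each of the 3 control lists.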
